A study of Rattus norvegicus with 6 samples.

Results

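The solute carrier family Slc25, the carriers of the inner mitochondrial membrane, was described in the renal cortex of rats given benzyl acetate or its vehicle. Members were all genes whose RefSeq symbol starts with Slc25a. By RefSeq accession, 40 such genes were matched to 82 probes of the array. Another 14 Slc25a symbols listed for the family were matched to no probe under those symbols. Some are second names of genes counted below with other mitochondrial transport: Ucp1, Ucp2, Mtch1 and Mtch2. The rest were not analysed here, so counts of the family are counts of the matched genes. Of these, 38 genes were detected, with at least 1 probe flagged as well above background in all 3 animals of a group, and these 38 were tested among 31179 genes in all. Slc25a41 and Slc25a53 were not detected.

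The animals were 6 male Sprague-Dawley rats (Crl:CD(SD)), 5 weeks old at purchase and kept on a basal diet. The vehicle group of 3 received corn oil for 4 weeks, and the other 3 received benzyl acetate, an aromatic ester, at 1000 mg/kg/day for 4 weeks. Each array measured Cy3-labelled RNA of the renal cortex of 1 animal by its brightness at each probe, so the number of arrays limits the precision. Levels are given as the log2 of a probe's signal over the 75th percentile of its array, so that 0 is a probe at that percentile. All differences are benzyl acetate minus vehicle on the log2 scale, with 95% intervals from limma and p-values adjusted by Benjamini-Hochberg over all 31179 genes.

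Slc25 proteins exchange metabolites across the inner membrane, which is otherwise closed to most charged molecules. They feed ADP and phosphate to ATP synthase, pass citric acid cycle intermediates, amino acids and acylcarnitines in and out of the matrix, and bring in cofactors and iron. Renal cortex is rich in proximal tubule, whose cells hold many mitochondria and use them for solute reabsorption, gluconeogenesis from lactate and amino acids, ammonia production and fatty acid oxidation. In bulk tissue, fewer cells of a type and less RNA per cell cannot be told apart.

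The sequences just upstream of the start were compared for the 33 of 38 members that matched a RefSeq promoter of the GRCr8 assembly, over the 250 bases before the start on both strands. The GC box core GGGCGG lay in 21 of the 33 members, 63.6%, and in 30.5% of all 33469 windows of that length. The CCAAT core was found in 19 members, 57.6%, against 34% of all windows. TATAAA was found in 1 member, Slc25a38, 3.03%, against 12.9% of all windows. A GC box match and a CCAAT match can share bases. A member was counted once if any of its windows matched, while the background counted each window. A gene with several windows has more places to match, so the shares of members and of windows are not like measures. These are matches of letters only. A pair is shown because the results turn on them: Slc25a3, the phosphate carrier, had the brightest signal of the members, and Slc25a21, the oxodicarboxylate carrier, had the largest difference between the groups. Capitals mark the GC box core in the first, and the CCAAT core, read on the opposite strand, in the second. Both are printed 5′ to 3′ along the gene, which lies on the minus strand at chr7:27506628-27506877 and at chr6:80437721-80437970 of GRCr8.
Slc25a3: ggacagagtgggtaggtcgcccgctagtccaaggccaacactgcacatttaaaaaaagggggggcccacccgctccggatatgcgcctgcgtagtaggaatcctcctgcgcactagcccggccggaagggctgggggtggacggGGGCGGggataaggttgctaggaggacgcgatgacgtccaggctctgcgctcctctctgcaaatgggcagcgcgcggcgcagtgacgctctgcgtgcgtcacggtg
Slc25a21: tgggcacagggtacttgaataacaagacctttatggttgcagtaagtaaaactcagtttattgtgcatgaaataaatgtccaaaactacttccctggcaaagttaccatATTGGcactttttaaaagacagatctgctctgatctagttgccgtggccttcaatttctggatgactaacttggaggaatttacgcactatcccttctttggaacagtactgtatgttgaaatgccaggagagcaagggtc
The Slc25a3 window held 1 GC box core and no CCAAT core, while the Slc25a21 window held 1 CCAAT core and no GC box core.

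No member passed the test. With limma, 0 of 38 members had an adjusted p under 0.05, beside 0% of all genes tested. At an unadjusted p under 0.05 there was 1 member of 38, Slc25a21, which was lower in benzyl acetate, where 6.74% of all genes passed that mark, 3.82% higher and 2.92% lower. In 3 members the arrays of the groups did not overlap on the probe that stood for the gene, beside 12.8% of all genes. Of these 3, Slc25a28 and Slc25a51 were higher, beside 7.51% of all genes, and Slc25a4 was lower, beside 5.31%. Neither count of members exceeded its background.

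For most members the intervals were narrow. The 95% interval lay inside a 1.5-fold difference either way for 32 of 38 members, beside 73.9% of all genes, and inside a 2-fold difference for 35, beside 91.5%. The difference was above 0 for 21 members and below 0 for 17, where 54% of all genes were above 0. The median difference was 0.0090 over the members and 0.012 over all genes. The interval reached a median of 0.246 to either side of the difference for the members and 0.269 for all genes. For members above the 75th percentile in vehicle this median was 0.209, beside 0.204 for all genes that bright. Below that percentile it was 0.337 for members, beside 0.329 for all genes. At like brightness the members' intervals were thus not narrower. The 6 members whose interval reached past 1.5-fold were Slc25a18, Slc25a21, Slc25a25, Slc25a30, Slc25a43 and Slc25a47, and for those the 3 arrays per group did not bound the difference that closely.

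**Figure D1:**
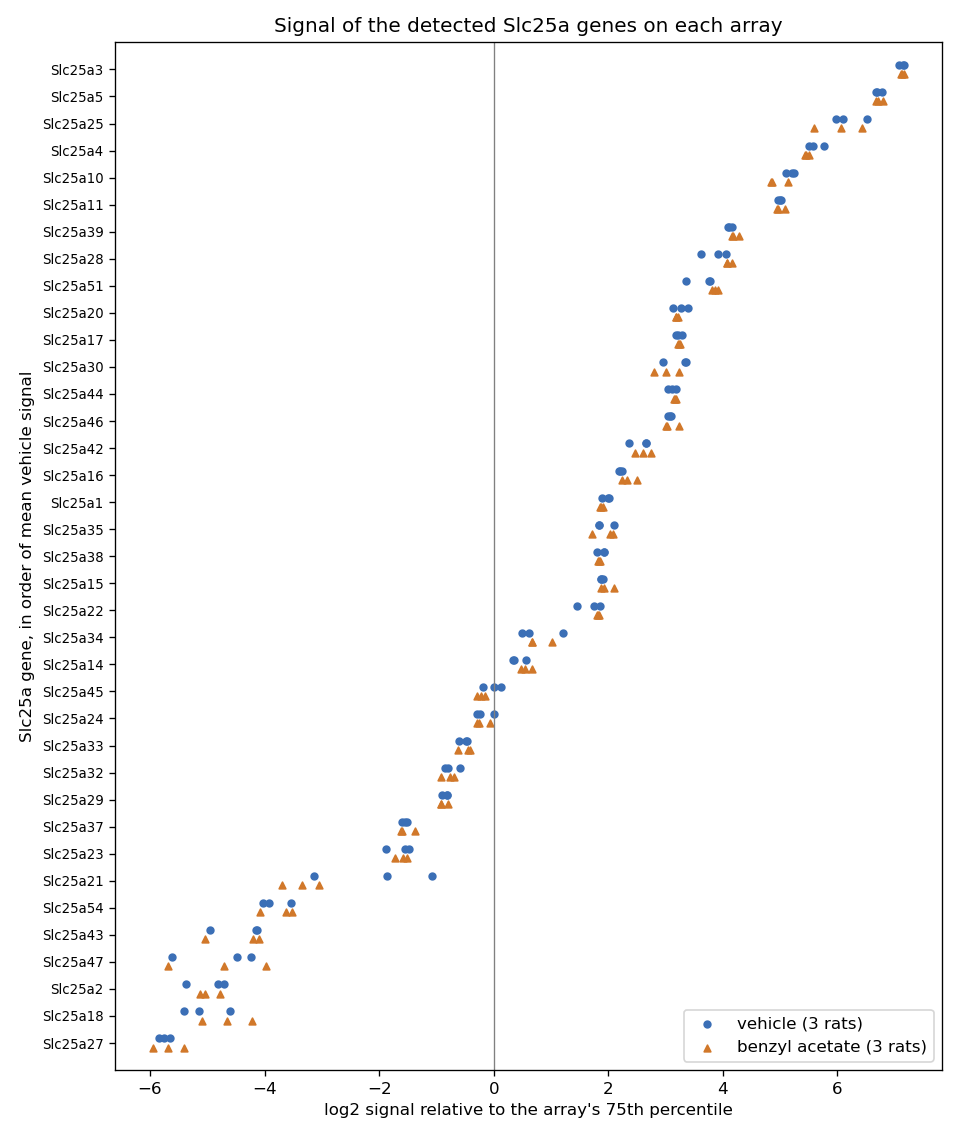
Log2 signal over the 75th percentile of the array for 37 of the 38 detected members on each array (vehicle and benzyl acetate, 3 arrays each), ordered by the vehicle mean. Levels run from 7.13 for Slc25a3 to -5.75 for Slc25a27 in vehicle, and the groups lie close together for nearly every member, Slc25a21 being the widest apart.

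By signal, the family spanned 12.88 log2 units in vehicle cortex, from Slc25a3 at 140 times the 75th percentile to Slc25a27, a carrier of the uncoupling-protein branch, at 0.0186 times. The signal of different probes depends on their sequence as well as on the RNA, so the order describes probes and is not an order of molecules. In vehicle, 24 members were above the 75th percentile and 14 below, and 8 were brighter in vehicle than 90% of all genes tested. The order at the top was Slc25a3, Slc25a5, Slc25a25, Slc25a4, Slc25a10, Slc25a11, Slc25a39 and Slc25a28, and the vehicle arrays of neighbours in this run did not overlap. Among all 37 neighbour pairs, 18 overlapped. Taking the dimmest detected probe of each gene in place of the brightest gave a Spearman coefficient of 0.779 with this order over the 38 members, and the mean of the probes gave 0.926, on the same arrays. Just inside the detection limit were Slc25a27 at -5.75 and Slc25a18 at -5.05 in vehicle. Slc25a27 was well above background on all 3 vehicle arrays and on 2 benzyl acetate arrays. Outside it were the probes of Slc25a53 at -6.74 and Slc25a41 at -7.73.

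The carriers of adenine nucleotides and phosphate held the brightest signals. Of the 6 tested, 2 were higher and 4 lower, with a median difference of -0.015 and none passing the test. Slc25a3, which imports the phosphate used by ATP synthase, had signals of 7.08, 7.15 and 7.17 in vehicle and 7.11, 7.13 and 7.16 in benzyl acetate. The benzyl acetate arrays lay inside the vehicle range, with a difference of -0.0029 (95% interval -0.156 to 0.150, limma adjusted p = 0.997). Slc25a5, a widely expressed ADP/ATP translocase, was at 6.68, 6.68 and 6.77 in vehicle and 6.71, 6.80 and 6.68 in benzyl acetate. Its difference was 0.018 (-0.150 to 0.186, adjusted p = 0.979). For this pair of carriers the arrays were close enough to bound any difference in signal well inside 1.5-fold.

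Slc25a4, the ADP/ATP translocase best known from heart and muscle, read 5.57, 5.76 and 5.50 in vehicle and 5.46, 5.50 and 5.44 in benzyl acetate. Every benzyl acetate array was below every vehicle array, but the gap between the groups was 0.00255 and the difference was -0.14 (-0.357 to 0.067, adjusted p = 0.795), or -0.071 without vehicle replicate 2, the highest array. Its other probes differed by -0.08 and -0.13, and in both the groups overlapped. Slc25a25, a calcium-regulated carrier of ATP-Mg and phosphate, varied between animals, with 5.97, 6.52 and 6.11 in vehicle and 6.43, 6.07 and 5.59 in benzyl acetate. Benzyl acetate replicate 3 was lowest on this probe and also on the second, far dimmer one. The difference was -0.17 (-0.776 to 0.433, adjusted p = 0.920), and 0.048 without that replicate. The other members of the group, Slc25a23 and Slc25a24, are calcium-regulated carriers like Slc25a25 and were dim, at -1.63 and -0.18 in vehicle.

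The carriers of di- and tricarboxylates and 2-oxo acids had 1 member higher and 3 lower, with a median difference of -0.16. Slc25a10, the dicarboxylate carrier, which exchanges malate and succinate for phosphate, read 5.11, 5.24 and 5.20 in vehicle and 5.13, 4.84 and 4.86 in benzyl acetate. Replicates 2 and 3 of benzyl acetate were below all vehicle arrays and replicate 1 was within them. The difference was -0.24 (-0.489 to 0.012, unadjusted p = 0.0585, limma adjusted p = 0.746), a 1.18-fold lower signal. Slc25a11, the 2-oxoglutarate carrier of the malate-aspartate shuttle, was at 4.99 ± 0.027 in vehicle (SD, n = 3). Slc25a1, the citrate carrier, was at 1.96 ± 0.0678 and 1.88 ± 0.0304 (SD, n = 3 each).

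Slc25a21, which carries 2-oxoadipate and 2-oxoglutarate and takes part in the breakdown of lysine and tryptophan, showed the largest difference of the members tested and the largest SD over the vehicle arrays. Its signals were -1.07, -3.14 and -1.87 in vehicle and -3.70, -3.06 and -3.35 in benzyl acetate. Vehicle replicates 1 and 3 were above all benzyl acetate arrays, while vehicle replicate 2 lay among them, so the groups overlapped. The means were -2.03 ± 1.04 and -3.37 ± 0.321 (SD, n = 3 each). The difference was -1.34 (-2.61 to -0.07), a 2.53-fold lower signal in benzyl acetate, with an unadjusted p of 0.0423 and a limma adjusted p of 0.728.

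The second probe of Slc25a21 gave the same order of the vehicle animals, with -1.24, -3.49 and -2.20 in vehicle and -3.58, -3.38 and -3.60 in benzyl acetate, and a difference of -1.21. Vehicle replicate 1, the highest array, was the only array on slide 1, and the other 5 were on slide 2. Without it, or with the slide as a block, the difference was -0.86, with normexp background correction it was -0.88, and without vehicle replicate 2 it was -1.90. Over the 18 alternatives the sign did not turn, and the adjusted p ranged from 0.349 to 0.863.

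**Figure D2:**
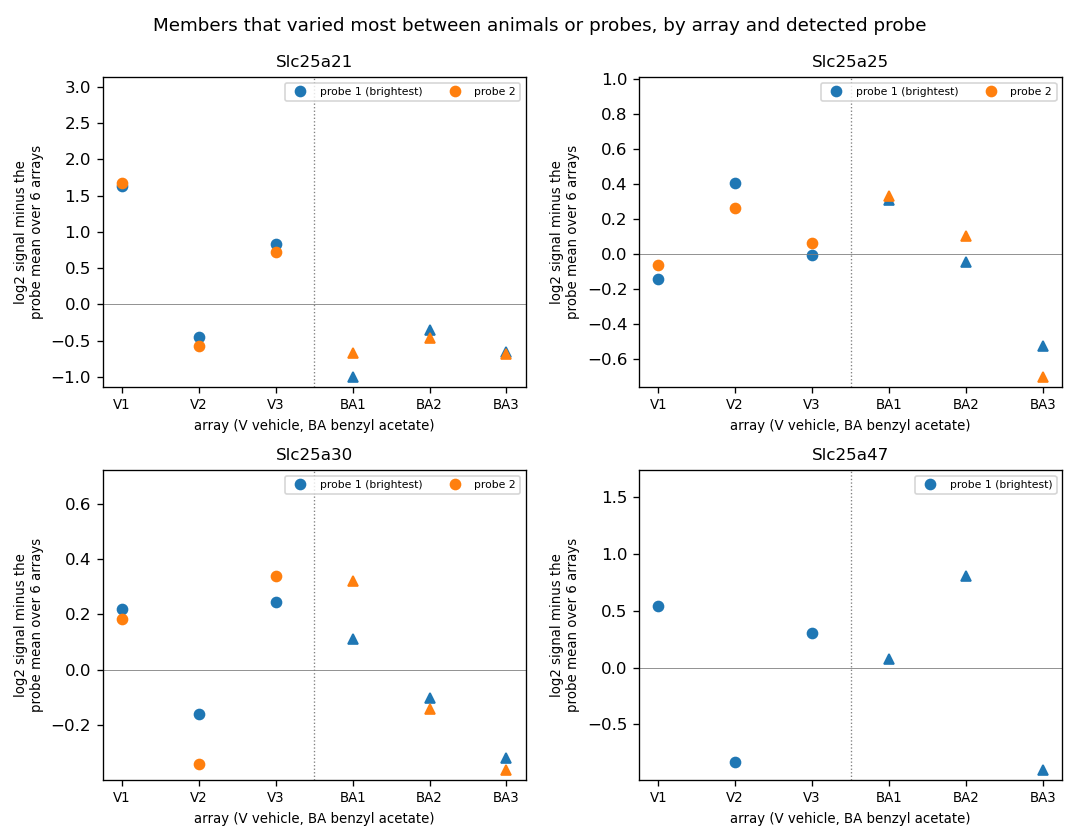
Log2 signal of each array minus the mean of that probe over all 6 arrays, for the detected probes of Slc25a21, Slc25a25, Slc25a30 and Slc25a47 (circles vehicle, triangles benzyl acetate, 1 colour per probe). For Slc25a21 both probes place vehicle replicate 2 near the benzyl acetate arrays, and for Slc25a25 both place benzyl acetate replicate 3 lowest.

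The uncoupling-protein branch holds carriers related in sequence to the thermogenic uncoupling protein. Of the 3 matched by Slc25a symbol, 2 were higher and 1 lower, with a median difference of 0.066. Ucp1 and Ucp2, of this branch under second names, were counted with other mitochondrial transport and were lower, at -0.32 and -0.18. Slc25a30, a carrier known from kidney, was the brightest, with 3.34, 2.96 and 3.36 in vehicle and 3.23, 3.02 and 2.80 in benzyl acetate. The groups overlapped, and the difference was -0.21 (-0.595 to 0.185, adjusted p = 0.837). Its second probe also had vehicle replicate 2 lowest in its group and benzyl acetate replicate 3 lowest of all. Slc25a14 was at 0.56, 0.35 and 0.33 in vehicle and 0.48, 0.55 and 0.67 in benzyl acetate, overlapping, with a difference of 0.15 (adjusted p = 0.807). For Slc25a27, near the detection limit, the values were -5.85, -5.65 and -5.75 against -5.68, -5.41 and -5.95. Its groups overlapped too, with a difference of 0.066.

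Amino acid carriers numbered 7, of which 4 were higher and 3 lower, with a median difference of 0.058 and no overlap-free member. The brightest was Slc25a44, a carrier of branched-chain amino acids, at 3.12, 3.18 and 3.05 in vehicle and 3.17, 3.19 and 3.16 in benzyl acetate. The difference was 0.058 (adjusted p = 0.891), within the spread. Slc25a38, which imports glycine for heme synthesis, read 1.93, 1.92 and 1.81 in vehicle and 1.85, 1.86 and 1.83 in benzyl acetate. Its difference was -0.042 (-0.203 to 0.120, adjusted p = 0.931).

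Of the glutamate carriers, Slc25a22 was at 1.68 ± 0.212 in vehicle and 1.82 ± 0.0123 in benzyl acetate (SD, n = 3 each), and Slc25a18 was dim. Slc25a18 read -5.41, -5.15 and -4.60 in vehicle and -4.22, -5.10 and -4.65 in benzyl acetate, overlapping, with a difference of 0.40 (-0.317 to 1.11, adjusted p = 0.831). The ornithine carrier Slc25a15, which serves the urea cycle and ornithine breakdown, was at 1.88 ± 0.0226 and 1.97 ± 0.119 (SD, n = 3 each). Slc25a2, a second ornithine carrier, was at -4.96 in vehicle and -4.98 in benzyl acetate. Slc25a29, a carrier of basic amino acids, was at -0.85 and -0.88. The aspartate-glutamate carriers Slc25a12 and Slc25a13 were not analysed here.

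Slc25a20, the carnitine-acylcarnitine carrier through which fatty acids reach the matrix for oxidation, was the sole member of its group. Its signals were 3.28, 3.13 and 3.39 in vehicle and 3.22, 3.18 and 3.18 in benzyl acetate. The benzyl acetate arrays lay inside the vehicle range, with a difference of -0.073 (-0.279 to 0.132, adjusted p = 0.891).

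The carriers of cofactors and nucleotides, 7 in number, had 5 higher and 2 lower and a median difference of 0.017. Slc25a51, the mitochondrial NAD carrier, was the brightest, with 3.77, 3.75 and 3.37 in vehicle and 3.86, 3.82 and 3.91 in benzyl acetate. All benzyl acetate arrays were above all vehicle arrays, by a gap of 0.042. The difference was 0.23 (-0.077 to 0.538, limma adjusted p = 0.784), and 0.098 without vehicle replicate 3, the lowest array. Its 4 dimmer detected probes gave differences of 0.14, 0.05, 0.08 and 0.10 with overlapping groups. Slc25a16, linked to coenzyme A in the matrix, read 2.18, 2.24 and 2.21 in vehicle and 2.23, 2.33 and 2.51 in benzyl acetate. The groups overlapped narrowly, with a difference of 0.15 (-0.070 to 0.362, adjusted p = 0.799). Slc25a42, which exchanges coenzyme A for adenine nucleotides, was at 2.66, 2.37 and 2.66 in vehicle and 2.74, 2.60 and 2.46 in benzyl acetate, a difference of 0.040 (-0.246 to 0.326, adjusted p = 0.969).

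Also in that group, Slc25a17, a carrier of the peroxisome rather than the mitochondrion, was at 3.23 ± 0.054 in vehicle and 3.23 ± 0.0186 in benzyl acetate (SD, n = 3 each). Slc25a33, a pyrimidine nucleotide carrier, stood at -0.51 and -0.50, and Slc25a32, a carrier of folate or flavin cofactor, at -0.74 and -0.79.

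The 3 carriers of iron and glutathione had differences above 0 at this scaling, with a median of 0.090, and none passed the test. Slc25a39, which imports glutathione, read 4.11, 4.17 and 4.09 in vehicle and 4.16, 4.29 and 4.18 in benzyl acetate. Replicate 1 of benzyl acetate lay within the vehicle range, and the difference was 0.090 (adjusted p = 0.836). Slc25a28, or mitoferrin 2, an iron importer, read 3.62, 4.06 and 3.91 in vehicle and 4.15, 4.07 and 4.07 in benzyl acetate. The groups did not overlap, by a gap of 0.0098, with vehicle replicate 1 far below the others. The difference was 0.24 (-0.065 to 0.536, limma adjusted p = 0.775), and 0.11 without that replicate or with the slide as a block. Its other detected probes gave 0.09 and 0.13 with overlapping groups. Slc25a37, mitoferrin 1, which is used most by developing red cells, was dimmer, at -1.55 in vehicle and -1.53 in benzyl acetate.

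**Figure D3:**
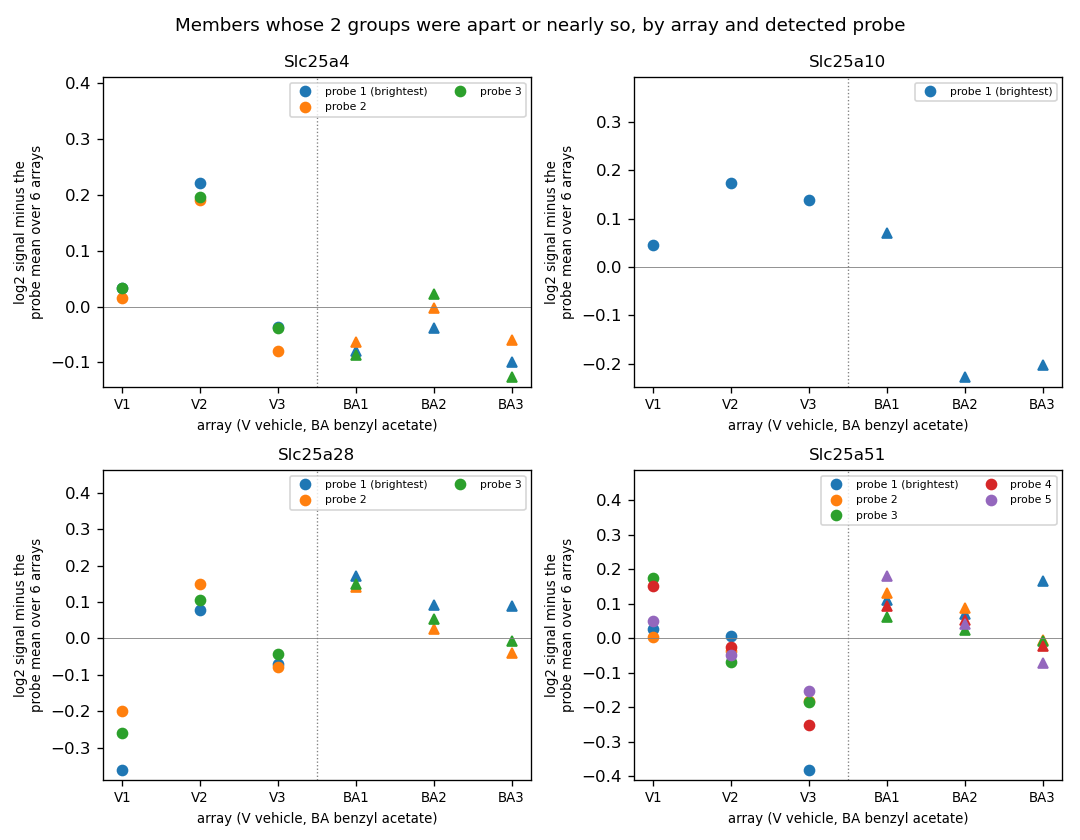
Log2 signal of each array minus the mean of that probe over all 6 arrays, for each detected probe of Slc25a4, Slc25a10, Slc25a28 and Slc25a51 (circles vehicle, triangles benzyl acetate, 1 colour per probe). In Slc25a4, Slc25a28 and Slc25a51 the groups are apart on the brightest probe by 0.00255, 0.0098 and 0.042, and in Slc25a10 they overlap through benzyl acetate replicate 1.

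The outer membrane protein and the carriers with no settled substrate, as matched by Slc25a symbol, were split 3 higher and 3 lower, with a median difference of -0.0022. Mtch1 and Mtch2, of this group under second names, were counted with other mitochondrial transport and differed by -0.025 and 0.080. Slc25a46, an outer membrane protein of mitochondrial shape and lipid traffic, read 3.05, 3.08 and 3.10 in vehicle and 3.03, 3.01 and 3.23 in benzyl acetate, a difference of 0.011 (adjusted p = 0.993). Slc25a45 was at 0.12, 0.01 and -0.19 in vehicle and -0.16, -0.23 and -0.28 in benzyl acetate. Only vehicle replicate 3 reached into the benzyl acetate range, and the difference was -0.20 (-0.446 to 0.038, unadjusted p = 0.0848, limma adjusted p = 0.762).

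The dim members of this group varied most. Slc25a47, known as a liver carrier, read -4.24, -5.61 and -4.48 in vehicle and -4.71, -3.98 and -5.69 in benzyl acetate, a difference of -0.014 with an interval from -1.33 to 1.30. Slc25a43 read -4.12, -4.95 and -4.14 against -5.04, -4.20 and -4.10, a difference of -0.042. For both the groups overlapped throughout, and a 2-fold difference was not detectable in Slc25a47. Slc25a35 and Slc25a34 were brighter, at 1.92 and 0.77 in vehicle. Slc25a54, placed in no substrate group, was at -3.83.

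**Figure D4:**
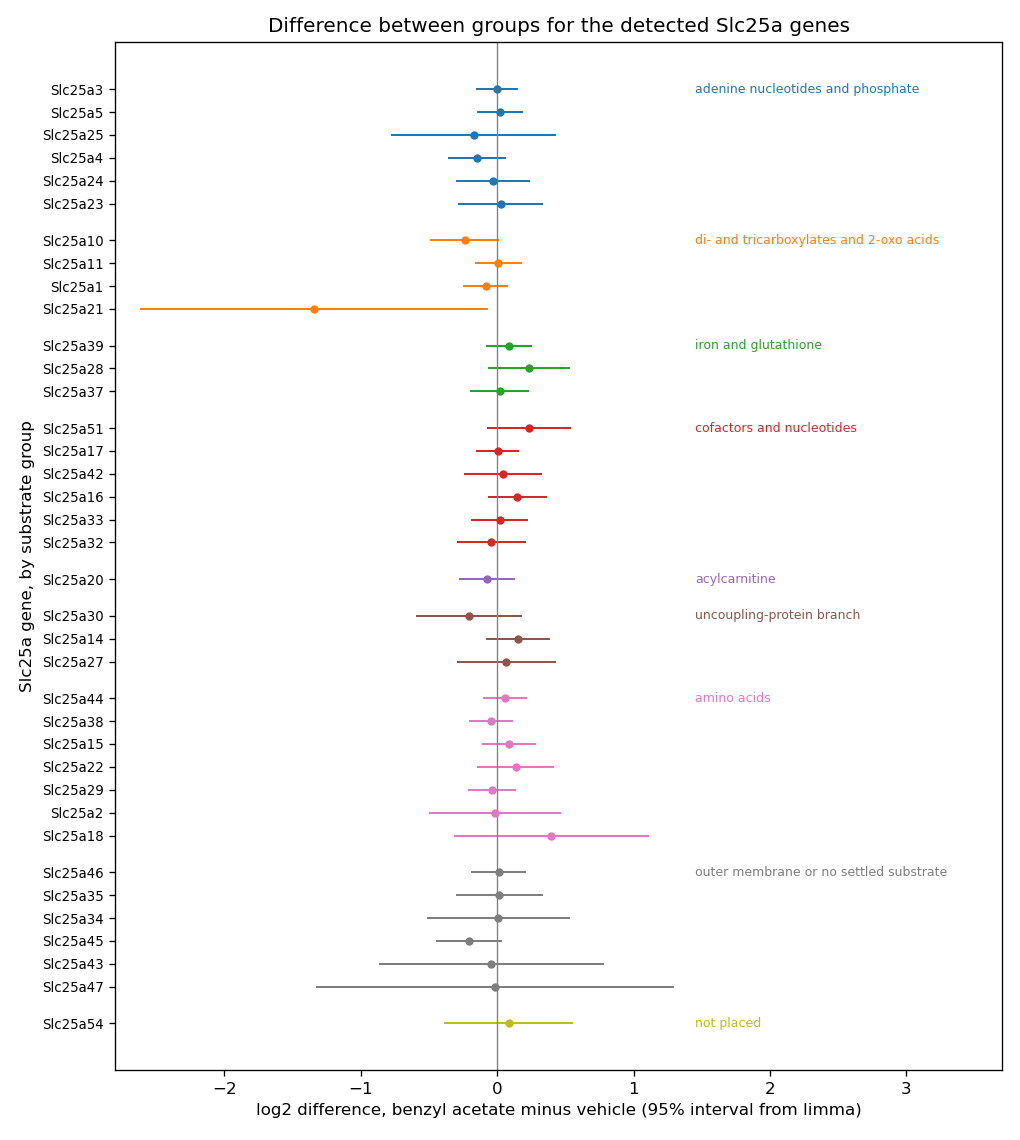
Difference of benzyl acetate minus vehicle on the log2 scale with its 95% interval from limma for 37 of the 38 members, grouped by substrate, with both groups' arrays entering each interval (n = 3 each). The intervals of all members shown but Slc25a21 include 0, and the interval of Slc25a21 runs from -2.61 to -0.07.

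The 16 members not given array by array had differences from -0.082 to 0.14, of which 10 were above and 6 below 0, with adjusted p from 0.846 to 0.997. All 16 intervals lay inside 1.5-fold, and in none were the groups apart on the probe that stood for the gene. On the second, dimmer probe of Slc25a32 the groups were apart, with a difference of -0.17. Spread between animals was larger among dim members. Over the 24 members above the 75th percentile the median SD of the vehicle arrays was 0.067, beside 0.083 for all genes that bright, and over the 14 dimmer members it was 0.187, beside 0.160.

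Several probes measured 29 members, and more than 1 was detected for 24. For 10 of these 24 the detected probes differed in the sign of the difference. Levels disagreed more. The probes of Slc25a15 were 7.21 log2 units apart in mean vehicle signal, those of Slc25a25 7.07, those of Slc25a44 6.70 and those of Slc25a42 5.02. At the other end, the probes of Slc25a11 were 0.13 apart and those of Slc25a21 0.28.

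Other proteins of mitochondrial transport were counted from a list of 29, which holds Ucp1, Ucp2, Mtch1 and Mtch2, family members under second names. Of these, 26 were tested, 16 higher and 10 lower, with 0 called by limma and a median difference of 0.042. Their brightest were Mpc2, a subunit of the pyruvate carrier, and Vdac1, the outer membrane channel. Mpc2 stood at 7.28 ± 0.0192 and 7.33 ± 0.0246, a difference of 0.051 (adjusted p = 0.895), and Vdac1 at 7.21 ± 0.203 and 7.32 ± 0.0546, a difference of 0.12 (adjusted p = 0.872; SD, n = 3 each). In 6 of the 26 the groups did not overlap, where the share over all genes was 12.8%. The unadjusted p was under 0.05 for Sfxn2, a sideroflexin, with a difference of 0.54 (limma adjusted p = 0.700), and for Ucp1, the thermogenic uncoupling protein, with -0.32 (limma adjusted p = 0.702) at a dim level of -4.90 in vehicle.

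Enzymes that make or use the carried substrates were counted in the same way. Of 39 listed, 36 were tested, 20 higher and 16 lower, with 0 called, 3 whose groups did not overlap (12.8% of all genes), and a median difference of 0.018. The brightest were Pck1, the cytosolic enzyme that commits carbon to gluconeogenesis, with a difference of 0.12 (adjusted p = 0.847), and Crat, which joins acetyl groups to carnitine, with -0.042 (adjusted p = 0.954). Glud1, glutamate dehydrogenase, read 6.18, 6.31 and 6.35 in vehicle and 6.67, 6.59 and 6.41 in benzyl acetate. All 3 treated arrays were above all vehicle arrays, with a difference of 0.28 (0.042 to 0.514, unadjusted p = 0.0281, limma adjusted p = 0.702). Gpt2, the mitochondrial alanine aminotransferase, was dim, at -4.10, -3.73 and -3.52 in vehicle and -3.31, -3.22 and -2.74 in benzyl acetate. Its groups did not overlap either, with a difference of 0.69 (0.182 to 1.21, unadjusted p = 0.0161, limma adjusted p = 0.685).

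The 75th percentile signal was 1003 to 1057 on the vehicle arrays and 883 to 990.4 on the benzyl acetate arrays, and 70.5% to 72.0% against 69.0% to 69.8% of probes were well above background, so that the groups did not overlap in either. No spot was saturated. Benzyl acetate replicate 3 stood apart on the first principal component, at 50.1 against -24.4 to -0.23 for the others, and its 3′ over 5′ signal of rat Gapdh, a sign of RNA quality, was 2.62 log2 units against 2.37 to 2.44. Without it the median difference was 0.040 over the members and 0.0072 over all genes. All 7 proximal tubule markers were detected, with summed levels of 1810 to 1884 times the 75th percentile in vehicle and 1798 to 2046 in benzyl acetate. Summed markers of the collecting duct were 209.8 to 236 in vehicle and 162 to 201 in benzyl acetate (5 of 5 detected), those of the distal convoluted tubule 24.8 to 28.3 and 21.5 to 24.6 (2 of 3, Pvalb not detected), and those of endothelium 28.4 to 31.6 and 33.2 to 35.7 (4 of 4). The groups did not overlap in these 3 sums, but a sum is led by its brightest genes. In endothelium Kdr differed by 0.25 and Pecam1, Emcn and Cdh5 by 0.033, 0.023 and 0.028. In distal convoluted tubule Slc12a3 differed by -0.19 and Calb1 by -0.41, so both detected genes were lower. In collecting duct Aqp2, the brightest, differed by -0.23, Atp6v1g3 by -0.63 and Aqp3 by -0.16, while Slc4a1 and Avpr2 differed by 0.093 and 0.069. The sums of the groups overlapped for thick ascending limb (239 to 423 and 302 to 325), podocyte (27.7 to 34.0 and 29.2 to 37.4), T cell (1.10 to 3.05 and 0.901 to 1.13, Cd3e not detected), macrophage (64.5 to 72.5 and 53.2 to 81.1), fat (1.19 to 2.11 and 1.53 to 2.00) and skeletal muscle (0.114 to 0.195 and 0.114 to 0.161, Myh4 not detected). The part of these markers, of array brightness and of RNA quality in the members' values was not tested.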

How the data were processed

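RNA from the renal cortex of 6 rats, 3 per group, was hybridised to 1-colour Agilent arrays; groups and replicate numbers came from the labels. Scanner tables deposited by the submitters give intensity values, linear, made with Agilent Feature Extraction 10.7 as their processing notes state; the signal used already had its background subtracted, per the file headers, and arrays had not been brought to a common scale. Flags that mark spots as outliers, as saturated or as well above background are the same program's. A processed table of intensity was also deposited. It matched the scanner signal after division of each array by 1 constant, with an SD of at most 0.0059 log2, so its scale is linear without centring by gene. Medians of its columns lay between 0.1102 and 0.1148 (0.1102, 0.111, 0.111, 0.1148, 0.1118, 0.1125, vehicle first).

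Each value was the log2 signal less that of the 75th percentile of its array, taken over 61537 probes without controls, and outlier spots were left out. Scaling of this kind hides any shift common to most RNAs. Probes were named by RefSeq accession against the GRCr8 table, and 12276 of 31179 genes tested had a symbol. The grid's build is older, so no probe coordinates are given. The brightest probe on average stood for a gene; probes of near-identical carriers can cross-hybridise. The R package limma 3.58.1 (R 4.3.3; lmFit, eBayes, Benjamini-Hochberg over all genes, threshold 0.05) compared the groups without a block and was tested on simulated data.

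Members, substrate groups and partner lists were chosen with earlier results of these data known. Values in every array are given for the 5 brightest members, the brightest of each substrate group, the 8 of lowest unadjusted p, the 4 of largest vehicle SD and any well above background throughout in only 1 group; Slc25a38 and Slc25a42 were added after their values were seen. Of each partner list the 2 brightest and up to 4 with an unadjusted p under 0.05 are named, and also Ucp2, Mtch1 and Mtch2 as family members. The alternatives were a replicate block, a slide block, normexp correction (offset 50, on the median signal), quantile and median scaling, other filters, other probe rules, outlier spots kept, the deposited value table, a trended robust prior and leaving out each array. Protein sequences were not used here. The values of 1 member are not reported here singly; it stays in the counts and medians.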

Additional observations from a re-analysis of the deposited data

How the results depend on the processing

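Over the 18 alternatives, 6 of which left out 1 array, the count of Slc25 members called stayed at 0, and the counts called in both partner lists too. Over all genes normexp called 2 and leaving out 1 array called 0 to 4 (2 without benzyl acetate replicate 1, 4 without replicate 3). With the replicate number as a block, 0 members were called and the adjusted p of Slc25a21 was 0.768. Deviations of same-numbered arrays correlated at -0.11, 0.0075 and 0.00095. That gave no sign of a pairing by number, but signals alone cannot tell how the animals were kept or processed. Of the 5 brightest members, 4 to 5 stayed among the 5 brightest. Medians near 0 moved: with the slide block, adenine nucleotides and phosphate to -0.078 and other mitochondrial transport to 0.016; with normexp the latter to 0.025; with median scaling the latter to 0.013 and all members to -0.020; with the mean of probes, amino acids to 0.0068; with the dimmest probe, cofactors and nucleotides to -0.053. Leaving out 1 array gave -0.0079 to 0.040 for all members, -0.078 to 0.032 for adenine nucleotides and phosphate, 0.018 to 0.076 for amino acids, -0.022 to 0.071 for cofactors and nucleotides, 0.015 to 0.067 for other mitochondrial transport and -0.16 to 0.056 for the outer membrane group. Of the 22 members given array by array, the only ones followed through the alternatives, 9 changed sign under at least 1, none of them called. With all arrays entered, these were Slc25a3 (0.0043 with the mean of probes, 0.011 with the dimmest), Slc25a5 (-0.021 quantile, -0.011 median scaling, -0.0023 dimmest probe), Slc25a38 (0.0051 normexp), Slc25a43 (0.098 slide block, 0.068 normexp, 0.073 mean of probes, 0.19 dimmest probe), Slc25a46 (-0.0046 slide block, -0.011 normexp, -0.018 median scaling, -0.0084 dimmest probe) and Slc25a47 (0.25 slide block, 0.089 normexp). Vehicle replicate 1 was alone on slide 1, so the slide block gives the same differences as leaving that array out. It is therefore not a separate alternative for the differences. Leaving out 1 array gave -0.37 to 0.048 for Slc25a25, -0.069 to 0.20 for Slc25a27, -0.029 to 0.016 for Slc25a3, -0.055 to 0.11 for Slc25a42, -0.31 to 0.25 for Slc25a43, -0.060 to 0.052 for Slc25a46, -0.43 to 0.43 for Slc25a47 and -0.015 to 0.048 for Slc25a5. The cause was not tested. Dim members limit what 3 arrays per group can show.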
